A study of Mus musculus with 6 samples.

Results

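Branched-chain amino acid breakdown was followed through 10 genes in the tibialis anterior, a mostly fast-contracting hindlimb muscle, with RNA-seq of 6 libraries. The genes were the aminotransferases Bcat2 and Bcat1, the dehydrogenase subunits Bckdha, Bckdhb and Dbt, the kinase Bckdk, the phosphatase Ppm1k, and the downstream enzymes Ivd, Hibch and Hibadh. They were chosen by symbol, and all 10 were found among the 41025 genes of each table by their Ensembl mouse gene ID. Of the C57BL/6 mice, all aged 8 weeks, 3 libraries were labelled Mettl21e KO and 3 wild type. Mettl21e encodes a muscle-enriched protein methyltransferase, and the comparison asks which transcripts differ when the gene is deleted. How the allele was made, the sex of the mice and whether each library is 1 mouse remain unknown, being not given in the sources used here. P-values therefore measure only the spread between libraries, which may be technical. In bulk muscle RNA, fewer cells of a type and less RNA per cell cannot be told apart.

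The transcript of the targeted gene did not tell the labels apart, so groups are named below by label. Mettl21e was at 1.64, 1.45 and 1.88 FPKM under the knockout label, against 2.46, 0.309 and 1.23 FPKM under the wild-type label. FPKM counts fragments per kilobase of gene length, scaled to the library total. A level over the whole gene need not show a partial deletion. Values of 3 libraries are given below in the order of their replicate numbers. Totals of 8476591 to 10435095 fragments stood behind the libraries labelled knockout and 8842349 to 10856669 behind those labelled wild type. The tissue label matched its markers, since all 8 fast-fibre markers (such as Tnnt3, Ckm and Acta1) were abundant, with summed levels of 69523 to 72376 FPKM in libraries labelled knockout and 70216 to 76360 FPKM under the wild-type label. Of the 8, 5 had log2 differences above 0 and 3 below, with a median of 0.05. Only Myh1 had a limma unadjusted p under 0.05 (0.0213, adjusted p = 0.988), where 1.28% of all tested genes were higher. Myh1 was at 2753, 2255 and 1977 FPKM under the knockout label, against 1881, 1841 and 1763 FPKM under the wild-type label. Its groups did not overlap, as for 3.84% of tested genes in this direction. The 7 slow and oxidative fibre markers all had lower means in the libraries labelled knockout, with a median log2 difference of -1.27. Of these 7 markers, 0 passed the adjusted limma test and 4 had an unadjusted p under 0.05, where 3.31% of all 11383 tested genes were lower. For 3 (Myh7, Myl2 and Mb) the labels did not overlap, as for 5.64% of tested genes in this direction. The sums of the 7 markers, most of which is Mb, were 5579 to 7008 FPKM in libraries labelled knockout and 7734 to 8376 FPKM in those labelled wild type. No marker was at 0. The sums of the endothelial, fibroblast, leukocyte, adipocyte, Schwann, satellite and red blood cell markers overlapped between labels, and their part and that of the slow-fibre markers in the results below was not tested.

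Leucine, isoleucine and valine are broken down largely outside the liver, and skeletal muscle is a main site of the first step. There a mitochondrial aminotransferase moves the amino group to 2-oxoglutarate and leaves a branched-chain keto acid. The branched-chain keto acid dehydrogenase complex then removes the carboxyl group irreversibly. It is switched off when its kinase phosphorylates the E1 alpha subunit and switched on when its phosphatase removes that phosphate. After this step the 3 carbon skeletons follow separate enzymes to acetyl-CoA, acetoacetate and succinyl-CoA.

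The start regions of 4 members are shown because these genes carry the contrasts in the values below. Bcat2 and Bcat1 are paralogs with very different levels, Bckdha was the tested member whose groups did not overlap, and Ivd had the highest deposited level. Each sequence is a RefSeq window (GRCm38.p6, the assembly of mm10) of 300 bases, with 250 before and 50 after an annotated start, read 5′ to 3′ on the strand of the gene. Bcat2 and Bcat1 each have a further window, and the more upstream one is given. Capitals mark a CCAAT box (CCAAT or ATTGG) or a TATA box (TATAAA or TTTATA).
Bcat2, chr7:45569903-45570202, plus strand: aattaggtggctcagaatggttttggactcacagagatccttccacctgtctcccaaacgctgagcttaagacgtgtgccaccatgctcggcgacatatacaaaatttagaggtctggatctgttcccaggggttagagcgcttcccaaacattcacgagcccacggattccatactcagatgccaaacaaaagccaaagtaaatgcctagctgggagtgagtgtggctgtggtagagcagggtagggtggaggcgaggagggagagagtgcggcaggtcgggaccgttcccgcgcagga
Bcat1, chr6:145076108-145076407, minus strand: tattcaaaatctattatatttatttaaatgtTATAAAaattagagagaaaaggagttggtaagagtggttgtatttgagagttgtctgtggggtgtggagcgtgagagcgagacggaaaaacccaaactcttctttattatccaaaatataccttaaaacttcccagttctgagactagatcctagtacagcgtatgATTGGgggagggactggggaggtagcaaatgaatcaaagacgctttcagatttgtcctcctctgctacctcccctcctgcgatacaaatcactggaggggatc
Bckdha, chr7:25658712-25659011, minus strand: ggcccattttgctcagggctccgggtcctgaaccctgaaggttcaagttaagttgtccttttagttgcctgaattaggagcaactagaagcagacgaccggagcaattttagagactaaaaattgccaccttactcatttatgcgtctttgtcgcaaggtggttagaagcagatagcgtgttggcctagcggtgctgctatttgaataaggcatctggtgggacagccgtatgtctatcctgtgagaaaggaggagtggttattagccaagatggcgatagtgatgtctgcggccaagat
Ivd, chr2:118861744-118862043, plus strand: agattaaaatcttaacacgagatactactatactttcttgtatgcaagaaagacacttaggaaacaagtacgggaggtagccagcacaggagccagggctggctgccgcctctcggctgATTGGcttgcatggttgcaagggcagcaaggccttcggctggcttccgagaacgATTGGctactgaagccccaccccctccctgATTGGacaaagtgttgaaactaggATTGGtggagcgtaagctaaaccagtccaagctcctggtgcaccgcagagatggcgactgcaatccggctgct

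The CCAAT box occurred 4 times in the Ivd window, all as ATTGG, and once in the Bcat1 window, which also held the TATA box. Neither motif was in the windows shown for Bcat2 and Bckdha. RefSeq windows were matched for 9 of the 10 genes, the exception being Dbt, and these had 12 windows in all. A CCAAT box was in 7 of the 12 windows, against 37.4% of all 32851 windows of this length. The GC box (GGGCGG or CCGCCC) was in 4 of the 12, against 35.7% of all windows, with 6 matches for Hibch alone. The TATA box was in 2 of the 12, against 13.6% of all. The element bound by estrogen-related receptors (TCAAGGTCA or TGACCTTGA) was in 0 of the 12 and in 0.423% of all. Both strands were searched, no match of a motif overlapped one of another motif in these windows, and a match describes the letters only.

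Transcripts of 9 of the 10 genes were plentiful, and those of Bcat1 were close to the detection limit. By mean FPKM over the 6 libraries the order was Ivd (139.8), Bckdk (121.8), Hibadh (52.3), Hibch (40.6), Dbt (39.3), Bcat2 (36.9), Bckdhb (31.7), Bckdha (20.3), Ppm1k (13.05) and Bcat1 (0.130). Ivd and Bckdk were among the 5.33% of tested genes with the highest mean level, whereas Ppm1k stood 39.0% of the way down. Of the 9 pairs of neighbours in this order, 4 had overlapping ranges over the 6 libraries: Ivd with Bckdk, Hibch with Dbt, Dbt with Bcat2, and Bcat2 with Bckdhb. The ranges of the other 5 pairs did not overlap, so that Hibadh (48.1 to 57.1 FPKM) lay above Hibch (37.6 to 44.6 FPKM) and Bckdha (18.2 to 23.4 FPKM) lay below Bckdhb (28.7 to 40.3 FPKM) in every library. Levels between genes rest on the lengths used for the FPKM. The lengths recovered from the values equalled the mean length of the gene's annotated transcripts, within 1 base, for 9 of the 10 members (60.1% of all genes). For Ivd that mean was 1062 bases, against 3665 bases for its longest transcript. With the longest transcript as the length, an alternative added after the data were seen, Bckdk (51.3 FPKM) came before Ivd (40.5 FPKM), Bcat2 (25.5 FPKM) and Bckdhb (21.2 FPKM). In that order Hibadh (19.8 FPKM), Dbt (14.2 FPKM), Hibch (14.2 FPKM), Bckdha (14.2 FPKM) and Ppm1k (5.06 FPKM) followed. The ratio of FPKM between labels within a gene does not depend on this choice.

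**Figure D1:**
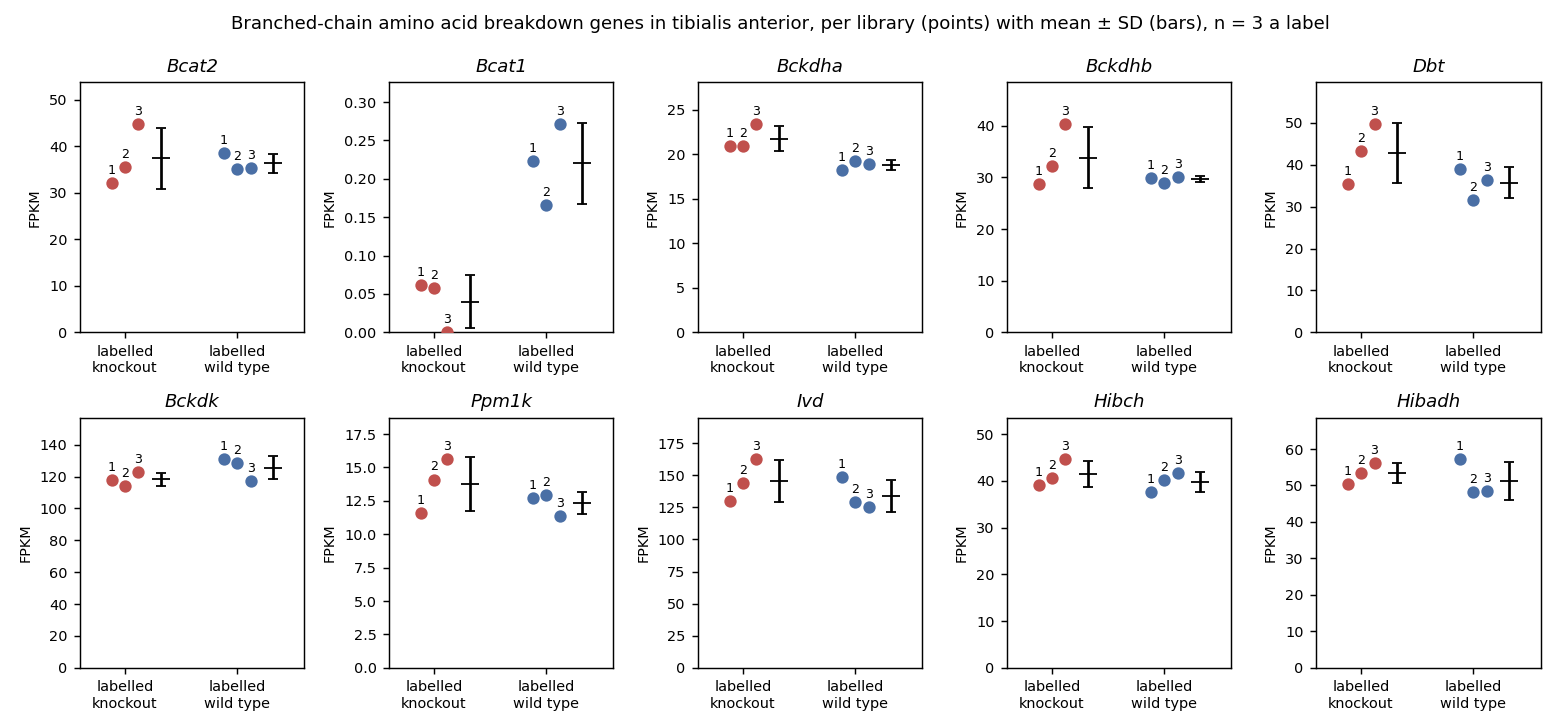
FPKM (y axis, from 0, its own scale in each panel) of the 10 genes in the libraries labelled knockout (red, left) and wild type (blue, right). Points are libraries with their replicate number, and bars give the mean ± SD (n = 3). The groups did not overlap for Bckdha, at 20.9 to 23.4 FPKM under the knockout label and 18.2 to 19.3 FPKM under the wild-type label. Nor did they for Bcat1, at 0 to 0.0618 FPKM under the knockout label and 0.166 to 0.271 FPKM under the wild-type label.

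Between labels, the 9 members averaging 1 FPKM or more had small differences, and 0 of them passed the test. In a limma fit over all 11383 genes with such a mean, 0% of genes passed a Benjamini-Hochberg adjusted p of 0.05, and the smallest adjusted p was 0.290. Without adjustment, 523 genes of the table and 0 members had a p under 0.05, and limma voom on recovered fragments called 0 genes, with 468 at that limit. With 1 library left out, the number of genes at that limit ran from 341 (without library 3 labelled wild type) to 1357 (without library 1 labelled wild type), and it was 1413 with library weights. Members at that limit numbered 0 to 2 over the alternatives. The 2 were Dbt and Bckdhb without library 1 labelled knockout, where 665 of 11382 genes were at it. Without a filter they were Bckdha and Bcat1, where 987 of 23559 genes were at it. Differences are given as knockout label minus wild-type label in units of log2(FPKM + 1), which understates the change of low genes. Those of the 9 genes lay between -0.08 and 0.25, with 8 above 0 and 1 (Bckdk) below it. Their median was 0.11, beside -0.02 over all tested genes, of which 43.3% were above 0. Leaving out library 3 labelled knockout lowered the median of the 9 to 0.03, with 7 above 0 and 2 below, and leaving out library 1 labelled knockout raised it to 0.19. Adjusted p was 0.988 for 8 of the 9 genes and 0.991 for Bcat2.

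**Figure D2:**
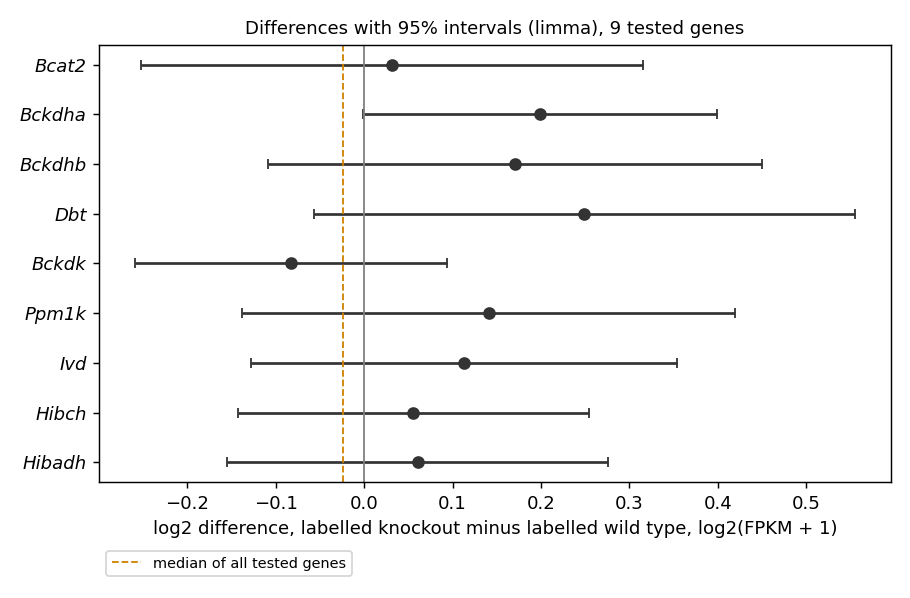
Log2 difference (x axis, labelled knockout minus labelled wild type, log2(FPKM + 1)) of the 9 tested genes, with 95% intervals from limma. The 95% interval covers 0 for each of the 9, and Bckdha (-0.0019 to 0.40) comes closest to leaving it out. The dashed line is the median of all tested genes (-0.02).

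The aminotransferases had very different levels. Bcat2 (ENSMUSG00000030826, chromosome 7, 45570153 to 45589711, plus strand) encodes the mitochondrial form that catalyses the first step in muscle. It was at 32.1, 35.5 and 44.8 FPKM under the knockout label, against 38.6, 35.1 and 35.2 FPKM under the wild-type label. The libraries labelled knockout held both the highest and the lowest value, so the groups overlapped fully. Means were 37.4 ± 6.56 FPKM for the knockout label and 36.3 ± 1.98 FPKM for the wild-type label (SD, n = 3 each), with a log2 difference of 0.03 and a 95% interval of -0.25 to 0.32. Without library 3 labelled knockout the difference turned to -0.10. An annotated gene on the other strand, 0610005C13Rik, shares 10.8% of the 50-base words of the Bcat2 transcripts, and whether the counting used strand was not given in the sources used here.

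Bcat1 (ENSMUSG00000030268, chromosome 6, 144993835 to 145076184, minus strand) encodes the cytosolic form, known mainly from brain, embryonic and tumour tissue. It was at 0.0618, 0.0575 and 0 FPKM under the knockout label, against 0.223, 0.166 and 0.271 FPKM under the wild-type label. These values were 1, 1 and 0 recovered fragments under the knockout label, against 4, 3 and 4 fragments under the wild-type label. All 3 libraries labelled knockout lay below all 3 labelled wild type, and a floor of 3 fragments would have been 0.172 to 0.212 FPKM in the libraries labelled knockout and 0.166 to 0.204 FPKM in those labelled wild type. Over the groups, 2 fragments under the knockout label stood against 11 under the wild-type label, a depth-scaled ratio of 0.193 with an exact 95% interval of 0.0208 to 0.886 that covers counting error only. The gene was below the filter and was not tested in the main fit. In the limma fit without a filter, 987 of 23559 genes had an unadjusted p under 0.05. Bcat1 was 1 of the 2 members among them, and 0 members were called. An exact two-sided permutation test of its FPKM gave p = 0.1, the smallest that 3 against 3 libraries allow. Among the 12176 genes with a mean above 0 and under 1 FPKM, 3.33% were likewise lower without overlap.

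Transcripts of the 3 dehydrogenase subunits among the members had higher means in the libraries labelled knockout, by 1.14 to 1.2 times, and none passed the test. The E3 subunit, encoded by Dld, was not a member and is given below with the other pathway genes. Bckdha (ENSMUSG00000060376, chromosome 7, 25629946 to 25658981, minus strand) encodes E1 alpha, the subunit that the kinase phosphorylates. It was at 21.0, 20.9 and 23.4 FPKM under the knockout label, against 18.2, 19.3 and 18.9 FPKM under the wild-type label. The groups did not overlap, as for 3.84% of all tested genes in this direction, and Bckdha was the only 1 of the 9 tested members for which this held. Means were 21.8 ± 1.43 FPKM for the knockout label and 18.8 ± 0.516 FPKM for the wild-type label (SD, n = 3 each). The log2 difference was 0.20 (SE 0.09, 95% interval -0.0019 to 0.40, limma unadjusted p = 0.0517, adjusted p = 0.988), and the exact permutation test gave p = 0.1.

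The Bckdha value is uncertain, because B3gnt8 overlaps it on the other strand and 49.6% of the 50-base words of its transcripts also occur, on the opposite strand, in those of B3gnt8. B3gnt8 (ENSMUSG00000059479, chromosome 7, 25626654 to 25635100, plus strand) is a glycosyltransferase gene. Its level was 1.30, 1.21 and 1.16 FPKM under the knockout label, against 0.456, 1.02 and 0.693 FPKM under the wild-type label. B3gnt8 had 31, 31 and 24 fragments under the knockout label, against 12, 27 and 15 under the wild-type label. Bckdha had 270, 289 and 263 fragments under the knockout label, against 260, 277 and 222 under the wild-type label. B3gnt8 thus also lay higher without overlap in the libraries labelled knockout, and its part in the Bckdha difference was not tested.

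Bckdhb (ENSMUSG00000032263, chromosome 9, 83925145 to 84124240, plus strand) encodes E1 beta, the partner of E1 alpha in the decarboxylase. It was at 28.7, 32.3 and 40.3 FPKM under the knockout label, against 29.8, 29.0 and 30.1 FPKM under the wild-type label. Library 1 labelled knockout was the lowest of the 6 and library 3 labelled knockout the highest, while the libraries labelled wild type lay between 29.0 and 30.1 FPKM. Means were 33.8 ± 5.93 FPKM for the knockout label and 29.6 ± 0.580 FPKM for the wild-type label, with a log2 difference of 0.17 (95% interval -0.11 to 0.45). The difference was 0.04 without library 3 labelled knockout and 0.28 without library 1 labelled knockout (limma unadjusted p = 0.0442).

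Dbt (ENSMUSG00000000340, chromosome 3, 116513070 to 116549981, plus strand) encodes E2, the core of the complex that carries the lipoyl arm. Its 3 levels were 35.5, 43.3 and 49.7 FPKM under the knockout label, against 39.0, 31.7 and 36.3 FPKM under the wild-type label. Libraries 2 and 3 labelled knockout lay above every library labelled wild type, and library 1 labelled knockout lay inside their range. With means of 42.8 ± 7.12 FPKM for the knockout label and 35.7 ± 3.73 FPKM for the wild-type label, Dbt had the largest log2 difference of the 9 tested members, 0.25 (SE 0.13, 95% interval -0.06 to 0.55, limma unadjusted p = 0.0981). It ranged from 0.14 without library 3 labelled knockout to 0.37 without library 1 labelled knockout.

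Ratios between the subunits varied within labels as well as between them. The Dbt to Bckdhb ratio of FPKM was 1.27 ± 0.0617 in libraries labelled knockout and 1.204 ± 0.108 in those labelled wild type, and the Bckdha to Bckdhb ratio was 0.653 ± 0.0748 under the knockout label and 0.636 ± 0.0268 under the wild-type label (SD, n = 3 each). Both ratios overlapped between labels.

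The kinase and the phosphatase had mean differences of opposite sign, and neither passed the test. Bckdk (ENSMUSG00000030802, chromosome 7, 127904082 to 127910221, plus strand) encodes the kinase that inactivates the complex. It was at 118.1, 114.1 and 122.6 FPKM under the knockout label, against 130.7, 128.3 and 117.2 FPKM under the wild-type label. Libraries 1 and 2 labelled wild type were above all libraries labelled knockout, and library 3 labelled wild type lay inside their range. Means were 118.3 ± 4.23 FPKM for the knockout label and 125.4 ± 7.22 FPKM for the wild-type label, the log2 difference was -0.08 (95% interval -0.26 to 0.09), and with a coefficient of variation of 5.40% over the 6 libraries Bckdk varied least of the 10 genes. With 1 library left out its difference stayed between -0.13 and -0.05, both ends set by libraries labelled wild type.

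Ppm1k (ENSMUSG00000037826, chromosome 6, 57506502 to 57535468, minus strand) encodes the mitochondrial phosphatase that reactivates the complex. It was at 11.6, 14.1 and 15.6 FPKM under the knockout label, against 12.7, 12.9 and 11.4 FPKM under the wild-type label. Libraries 2 and 3 labelled knockout were above the range of the wild-type label, and library 1 labelled knockout was within it. Means were 13.8 ± 2.01 FPKM for the knockout label and 12.3 ± 0.822 FPKM for the wild-type label, with a log2 difference of 0.14 (95% interval -0.14 to 0.42). Without library 3 labelled knockout the difference was 0.05, and without library 1 labelled knockout it was 0.25.

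Kinase transcripts outnumbered phosphatase transcripts per length in every library. The Bckdk to Ppm1k ratio of FPKM was 10.2, 8.10 and 7.86 under the knockout label, against 10.3, 9.94 and 10.3 in those labelled wild type. Library 1 labelled knockout lay inside the wild-type range and the other 2 below it, with means of 8.71 ± 1.27 for the knockout label and 10.2 ± 0.206 for the wild-type label (SD, n = 3 each). The ratio was not tested.

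The downstream enzymes Ivd, Hibch and Hibadh had overlapping groups and differences that did not pass the test. Ivd (ENSMUSG00000027332, chromosome 2, 118861954 to 118882909, plus strand) encodes isovaleryl-CoA dehydrogenase of the leucine branch, and its window with 4 CCAAT boxes is shown above. It was at 130.1, 143.7 and 162.4 FPKM under the knockout label, against 148.4, 128.9 and 125.2 FPKM under the wild-type label. Library 3 labelled knockout was the highest and library 3 labelled wild type the lowest, and the other 4 were interleaved. Means were 145.4 ± 16.2 FPKM for the knockout label and 134.2 ± 12.5 FPKM for the wild-type label, with a log2 difference of 0.11 (95% interval -0.13 to 0.35). Leaving out library 3 labelled knockout gave 0.03, while leaving out library 1 with either label gave 0.19.

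Hibch (ENSMUSG00000041426, chromosome 1, 52844929 to 52920986, plus strand) encodes 3-hydroxyisobutyryl-CoA hydrolase of the valine branch. It was at 39.2, 40.6 and 44.6 FPKM under the knockout label, against 37.6, 40.2 and 41.7 FPKM under the wild-type label. The groups overlapped, with the highest value under the knockout label and the lowest under the wild-type label, and the log2 difference was 0.06 (95% interval -0.14 to 0.25). It ranged from 0.0029 without library 3 labelled knockout to 0.09 without library 1 labelled knockout. Hibadh (ENSMUSG00000029776, chromosome 6, 52546228 to 52640389, minus strand) encodes the next valine enzyme, 3-hydroxyisobutyrate dehydrogenase. It was at 50.5, 53.5 and 56.1 FPKM under the knockout label, against 57.1, 48.1 and 48.5 FPKM under the wild-type label. Library 1 labelled wild type was the highest of the 6 and the other 2 with that label the lowest, and the log2 difference was 0.06 (95% interval -0.16 to 0.28). Leaving out single libraries gave 0.02 (omitting library 2 labelled wild type) to 0.14 (omitting library 1 labelled wild type). Apart from Bckdha and Bcat2, transcripts of the members shared between 0.642% and 4.80% of their 50-base words with those of other genes.

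Across the 6 libraries, library 3 labelled knockout held the highest value of 7 of the 9 tested members, whereas 15.3% of all tested genes were highest there. The mean deviation of the 9 from their 6-library average was -0.09, 0.03 and 0.21 log2 units under the knockout label, against 0.0050, -0.08 and -0.08 under the wild-type label. The other 2, Bckdk and Hibadh, were highest in library 1 labelled wild type. The library with the most members at their maximum also held the highest value for 12 of the 17 listed downstream enzymes. It did so for 1 of 6 acceptors of amino nitrogen, 0 of 7 transporters and 0 of 5 regulators of the pathway. The mean deviations of these 3 lists there were -0.07, -0.09 and -0.08 log2 units. Of 13 mitochondrial reference genes (such as Cs, Sdha and Cox4i1), 2 were highest in that library. The mean deviation of those reference genes there was 0.02 log2 units, and that of all tested genes was -0.02. Genes encoded by mitochondrial DNA took 19.8% of the fragments in library 3 labelled knockout, the largest share of the 6 libraries. The others held 15.2% to 17.7% under the knockout label and 15.5% to 17.3% under the wild-type label, and the part of this share in the pattern was not tested.

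**Figure D3:**
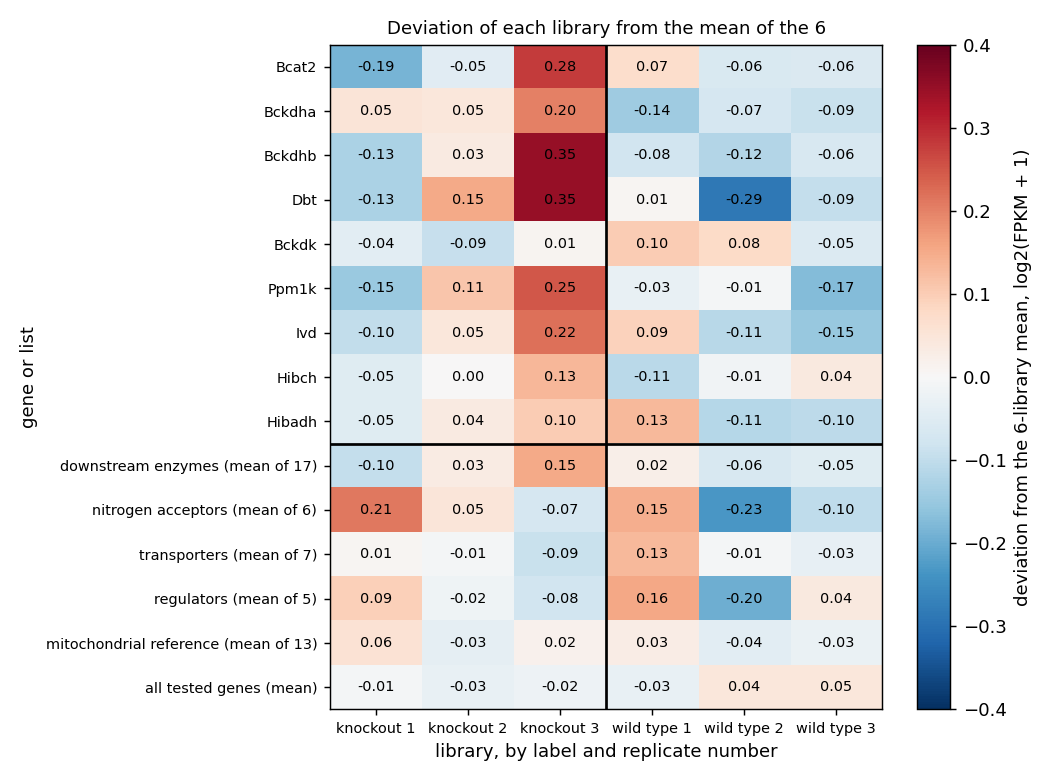
Deviation of each library (columns) from the mean of the 6, in log2(FPKM + 1), for the 9 tested genes (upper rows) and as means of other lists (lower rows). Library 3 labelled knockout is above the mean for all 9 genes, from 0.01 for Bckdk to 0.35 for Dbt, while the mitochondrial reference genes average 0.02 there.

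As a description over the 6 libraries, which share depth and scaling, the 36 pairs among the 9 tested members had a median Pearson r of 0.65, and 9 pairs exceeded 0.8. The same values over all pairs of tested genes were not computed, so whether the members are more alike than other genes cannot be read from them. The closest pair was Ivd with Hibadh (0.92), followed by Bckdhb with Dbt (0.90), and the least alike was Bckdha with Bckdk (-0.40). The gene most like each member among all 11383 tested was Lap3 for Bckdha (0.99), Epdr1 for Bckdhb (0.99), Atp5c1 for Dbt (0.996), Exosc3 for Bckdk (0.98) and Cox18 for Ppm1k (0.995). For Ivd it was Eif5 (0.99), for Hibch Tbc1d16 (0.996), for Hibadh Srpr (0.99) and for Bcat2 the locus 6720427I07Rik (0.98). The 5 genes other than members closest to the mean profile of the 9 were Eif1, Zfas1, Ebpl, Ube2d1 and Ythdc2, with r of 0.98 to 0.99. All these genes were picked for the highest r among all tested genes over only 6 libraries. Such a search returns high values by itself, so they show no link to the members.

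Other genes of the pathway were examined in 4 lists with 35 members, all above the filter. None passed the adjusted test, 21 had log2 differences above 0 and 14 below, and their median was 0.05. Without adjustment 2 had a p under 0.05, 1 in each direction, where 1.28% of all tested genes were higher and 3.31% lower at that limit. This count was 7 without library 1 labelled knockout, where 665 of 11382 tested genes were at that limit. Without library 1 labelled wild type it was 5, where 1357 of 11425 tested genes were. Omitting library 2 labelled knockout (343 of 11409 tested genes) or library 3 labelled knockout (407 of 11390) gave 0. Omitting library 2 labelled wild type (355 of 11357) gave 1. The pathway count was also 7 with library weights (1413 of 11383 tested genes) and 0 with the replicate block (472 of 11383). Klf15, a transcription factor that in mouse muscle raises Bcat2 and other genes of amino acid breakdown, was at 22.8, 28.0 and 23.9 FPKM under the knockout label, against 22.4, 15.2 and 19.9 FPKM under the wild-type label. The groups did not overlap, as for 3.84% of tested genes in this direction, and the log2 difference was 0.37 (SE 0.15, limma unadjusted p = 0.0321, adjusted p = 0.988). Slc43a2, a transporter of large neutral amino acids, was at 11.5, 10.1 and 9.87 FPKM under the knockout label, against 11.9, 17.7 and 12.4 FPKM under the wild-type label. Its groups did not overlap either, as for 5.64% of tested genes in this direction, and the log2 difference was -0.37 (SE 0.15, limma unadjusted p = 0.0392, adjusted p = 0.988). Library 2 labelled wild type held the lowest Klf15 and the highest Slc43a2, and without it the difference was 0.23 for Klf15 and -0.20 for Slc43a2.

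Of the 7 transporters, 3 had differences above 0 and 4 below. Slc25a44, the mitochondrial carrier of branched-chain amino acids and chosen here after its values were seen, was at 8.73, 9.91 and 8.78 FPKM under the knockout label, against 8.47, 8.28 and 8.22 FPKM under the wild-type label. Those groups did not overlap, as for 3.84% of tested genes in this direction, with a log2 difference of 0.12 (limma unadjusted p = 0.258). Among the 17 genes listed as downstream enzymes, 11 were above 0 and 6 below, with a median of 0.06 and 0 without overlap. Apart from Dld, these take the keto-acid products to the citric acid cycle. Dld, named here after its values were seen, encodes E3, a subunit of the dehydrogenase complex itself. It averaged 174.9 ± 15.1 FPKM under the knockout label and 172.4 ± 6.49 FPKM under the wild-type label, with a log2 difference of 0.02. The 3 most abundant of the 17 had overlapping groups. Hadha, a subunit of the mitochondrial trifunctional protein, averaged 332.9 ± 17.5 FPKM under the knockout label and 358.0 ± 26.3 FPKM under the wild-type label (SD, n = 3 each). The ketone-body enzyme Oxct1 averaged 293.2 ± 41.8 FPKM under the knockout label and 296.4 ± 24.7 FPKM under the wild-type label, and the thiolase Acat1 averaged 238.1 ± 26.9 FPKM under the knockout label and 227.5 ± 9.56 FPKM under the wild-type label. Mccc1 and Mccc2, the subunits of methylcrotonyl-CoA carboxylase, which acts after Ivd in the leucine branch, were also named after their values were seen. Mccc2 was at 15.5, 16.4 and 19.9 FPKM under the knockout label, against 15.5, 13.4 and 14.2 FPKM in those labelled wild type, with a log2 difference of 0.25 (limma unadjusted p = 0.0655). Mccc1 averaged 15.7 ± 1.57 FPKM under the knockout label and 13.9 ± 1.57 FPKM under the wild-type label.

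The acceptors of amino nitrogen, through which muscle passes the amino groups on as alanine and glutamine, were above 0 for 5 of 6 genes with a median log2 difference of 0.10. Got1, the cytosolic aspartate aminotransferase, averaged 523.0 ± 47.1 FPKM in libraries labelled knockout and 487.3 ± 25.6 FPKM under the wild-type label. Got2, its mitochondrial counterpart, averaged 349.7 ± 38.3 FPKM under the knockout label and 359.1 ± 21.0 FPKM under the wild-type label. Glul, glutamine synthetase, was at 346.9, 287.8 and 218.8 FPKM under the knockout label, against 420.5, 158.5 and 229.6 FPKM in those labelled wild type, so the wild-type label spanned both the highest and the lowest value. The 13 mitochondrial reference genes had a median of 0.03, with 8 above 0 and 5 below. Their most abundant members were Atp5b at 3633 ± 250.8 FPKM in libraries labelled knockout and 3444 ± 24.8 FPKM in those labelled wild type, Atp5a1 at 1680 ± 191.1 FPKM under the knockout label and 1601 ± 41.0 FPKM under the wild-type label, and Vdac1 at 1515 ± 83.9 FPKM under the knockout label and 1371 ± 152.5 FPKM under the wild-type label.

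**Figure D4:**
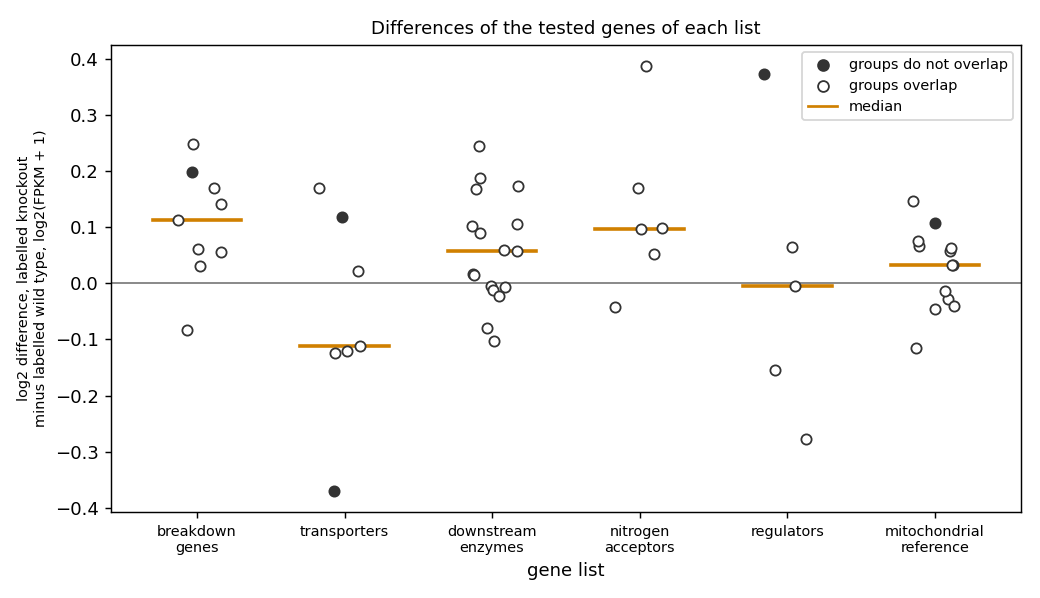
Log2 differences (y axis, labelled knockout minus labelled wild type, log2(FPKM + 1)) of the tested genes of each list, with the median of each list as a bar. Filled points mark genes whose groups do not overlap: Bckdha, Slc25a44, Slc43a2, Klf15 and, among the mitochondrial reference genes, Sdha (0.11). Of all tested genes, 3.84% were higher and 5.64% lower under the knockout label without overlap.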

How the data were processed

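RNA of the tibialis anterior was sequenced in 6 libraries. The authors deposited 1 table of FPKM per gene and library, and TopHat2 2.1.1, Cufflinks 2.2.1 and mm10 are named, without a role, per the submitters' processing notes. The annotation release, strand assignment and read filters were not given in the sources used here. Symbols, positions and transcripts came from GENCODE M21 on the same assembly, and start regions from RefSeq.

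The members and lists were chosen with earlier results of these data known. Whole fragments were recovered by finding each library total and gene length that made every value whole within 0.002 of a fragment, which worked for 100% of the 23559 genes above 0. Intervals and floors (3 fragments) from them account for counting error alone. The comparison of labels used limma 3.58.1 (R 4.3.3), with log2(FPKM + 1) as the response, no covariate and a trended prior variance, on the 11383 genes averaging 1 FPKM or more, with Benjamini-Hochberg adjustment over all of them. Single genes were also compared by an exact permutation test. All 10 members were named. From the other pathway lists and the mitochondrial reference list, genes with an unadjusted p under 0.05 were named, otherwise the 3 with the highest mean. Cell type markers were not named by this rule. Tnnt3, Ckm and Acta1 were given as examples, and Myh1, Myh7, Myl2 and Mb because their groups did not overlap. Tnnt1, Tnni1, Tnnc1 and Myh2 were named after their values were seen. Genes of like pattern were those with the highest Pearson r over the 6 libraries. B3gnt8, Slc25a44, Dld, Mccc1, Mccc2 and Sdha were named after their values were seen. Alternatives covered scaling (library median, quantiles, total without mitochondrial DNA genes), pseudocounts of 0.1 and 0.01, filters (none, mean of 5 FPKM), replicate block, no trend, library weights, voom and each library left out. Replicate pairs differed beyond sampling noise (chi-square per degree of freedom 7.04 to 19.4 over genes with at least 20 fragments). Python 3.11.15, pandas 2.3.3, numpy 2.4.6, scipy 1.17.1 and matplotlib 3.10.9 were used.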

Additional observations from a re-analysis of the deposited data

How the results depend on the processing

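Members called were 0 under all 17 alternatives that were run, and so were other pathway genes called. Over all genes the count was 0 under the 11 alternatives that keep every library, and 0 to 3 when 1 library was left out, the highest without library 3 labelled wild type. The log2 differences of 8 of the 9 tested members kept their sign under all 17 alternatives. Bcat2 ranged from -0.10 to 0.13 with 1 library left out and was negative without library 3 labelled knockout. Leaving out 1 library was also run for Mettl21e and the 11 other genes named by rule. It was not run for B3gnt8, Slc25a44, Dld, Mccc1, Mccc2, Sdha and the cell type markers. The ranges crossed 0 for Mettl21e (-0.068 to 0.63), Oxct1 (-0.12 to 0.090), Acat1 (-0.030 to 0.12), Got2 (-0.12 to 0.039), Glul (-0.15 to 0.55) and Atp5a1 (-0.025 to 0.13). Oxct1 also turned to 0.024 under median subtraction, and Got2 to 0.0046 under median subtraction and 0.0086 under quantile normalization. The cause was not tested. Bckdha lay between 0.15 and 0.25 under every alternative, with an adjusted p of at least 0.404, and its unadjusted p was lowest, 0.0238, under median subtraction. Dbt reached an unadjusted p of 0.0160 without library 1 labelled knockout.

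Libraries with the same replicate number share only that number. The deviations of same-numbered libraries correlated at 0.0236, -0.0408 and 0.0232 over 11383 genes, and not every library correlated best with its own number. With the replicate block 0 genes, 0 members and 0 other pathway genes were called. The log2 difference of Bcat1, -0.23, moved to -1.22 and -2.63 with pseudocounts of 0.1 and 0.01. Depth limits the comparison of Bcat1, for which no library had more than 4 fragments.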
